A study of Saccharomyces cerevisiae with 5 samples.

Results

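The 10 cytosolic chaperone genes described here are SSA1, SSA2, SSA3, SSA4, SSB1 and SSB2 of the HSP70 family, HSP82 and HSC82 of the HSP90 family, the disaggregase gene HSP104 and the small heat shock gene HSP26. They were found by gene symbol in the annotation of the arrays, and all 10 were spotted on both slide types, out of 5583 genes in all. The slide type of arrays 1 to 3 carried 12 spots of these genes, with 2 spots each for SSA2 and HSP104 and 1 for every other member. The slide type of arrays 4 and 5 carried 20, an adjacent pair for every member. In Saccharomyces cerevisiae, cDNA from RNA that co-purified with zz-tagged Yra1, a nuclear adaptor protein of mRNA export, was hybridised against cDNA from RNA recovered with the zz tag alone, an affinity tag that binds immunoglobulin. The 5 arrays form 1 group, where channel 2 held the zzYra1 immunoprecipitate on arrays 1, 2 and 5, and channel 1 held it on the other 2. The labels name no strain, growth condition or heat treatment. Nothing says that the arrays came from separate cultures, so their spread may be technical. The titles of arrays 4 and 5 share a number, while arrays 1 to 3 each carry a different one. No label says what this number stands for. Arrays 4 and 5 also share their slide type, so the number and the slide type cannot be told apart. No array set an immunoprecipitate against total RNA, so a difference in binding and a difference in the amount of an mRNA in the cells cannot be told apart.

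HSP70 proteins bind short hydrophobic stretches of unfolded chains and release them when ATP replaces ADP, with J-proteins and exchange factors driving that cycle. HSP90 acts later, on nearly folded clients such as kinases, and HSP104 pulls chains out of aggregates that small heat shock proteins have coated. In growing yeast SSA1, SSA2, SSB1, SSB2 and HSC82 are made constitutively, while SSA3, SSA4, HSP82, HSP104 and HSP26 are the forms induced by heat and other stress, mainly through the heat shock factor Hsf1 and the general stress factors Msn2 and Msn4. Messenger RNAs of the induced group are known for rapid export from the nucleus during heat shock, when export of most other mRNA is held back.

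Every value below is a log2 ratio of the channels minus the median gene of the same array, with the sign as deposited. No label or table names the numerator of the ratios, and the arrays do not settle it. The median correlation over the 6 pairs of arrays with opposite orientation was -0.00045. Pairs with the same orientation lay below 0 too, at -0.0259 (arrays 1 and 2), -0.0456 (1 and 5), -0.0816 (2 and 5) and -0.0181 (3 and 4). All 10 pairs lay between -0.0816 and 0.0468. Without a positive correlation within an orientation, the sign between orientations cannot show the numerator. A positive value therefore does not say that an RNA was richer in the zzYra1 immunoprecipitate.

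The chaperone genes had a value on 6, 7, 10, 5 and 6 of 10 possible occasions on arrays 1 to 5. Over all genes of the respective slide type the shares with a value were 44.3%, 51.1%, 97.6%, 23.9% and 19.8%. The share of members was 50.0% on array 4 (95% Wilson interval 23.7% to 76.3%) and 60.0% on array 5 (interval 31.3% to 83.2%). These intervals cover counting error only and take genes as independent, although near-identical chaperone genes can bind the same cDNA. Constitutive and stress-induced members were measured about equally often, in 3 and 3 of 5 cases on array 1, 4 and 3 on array 2, 5 and 5 on array 3, 3 and 2 on array 4, and 3 and 3 on array 5.

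Which members were measured differed between arrays. SSA3 and SSA4, both stress-induced cytosolic HSP70 genes, had no value on arrays 4 and 5. SSB1 and SSB2, whose products sit on the ribosome and meet nascent chains, never had a value together there: SSB1 was measured on array 4 alone and SSB2 on array 5 alone. The HSP90 genes were split the other way round, with HSC82 on array 4 and HSP82 on array 5. HSP104 and HSP26 were measured on both of these arrays, as was SSA1. No member had a value on all 5 arrays. SSA1, SSA2, SSB2, HSP82 and HSP104 had 4 values each, SSA4, SSB1, HSC82 and HSP26 had 3, and SSA3 had 2.

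**Figure D1:**
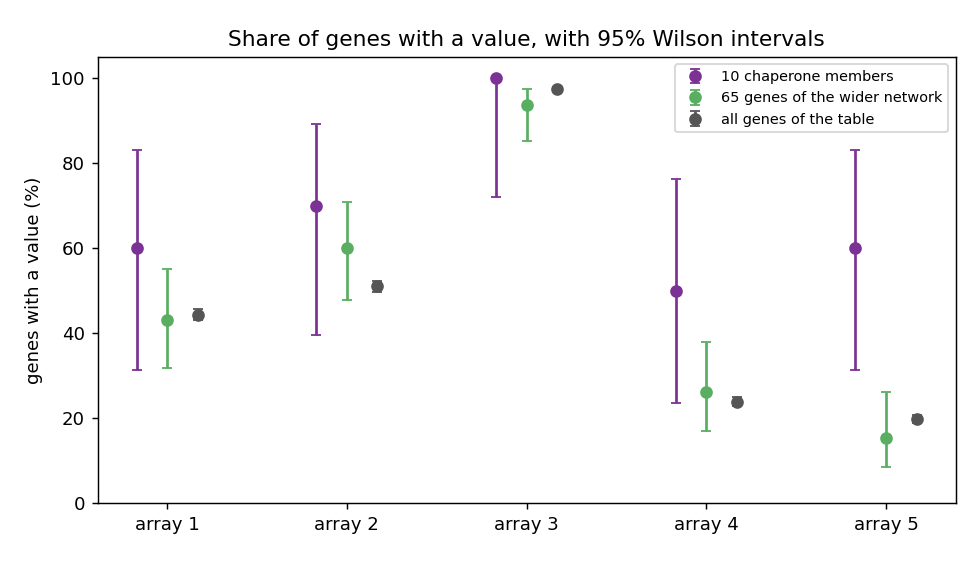
Percent of genes with a value on each array, for the 10 chaperone members, 65 genes of the wider chaperone network and all genes of the slide type, with 95% Wilson intervals as bars. The members lie above all genes on arrays 4 and 5, at 50.0% and 60.0% against 23.9% and 19.8%, with wide intervals from 10 genes.

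The position of a spot moved with these gaps. The 4 members without any value on array 1 (SSA1, SSA3, SSB1 and HSP26) are the 4 printed among the first 960 spots, where 18.0% of all spots had a value, against 43.9% of the later spots. On array 4 the spots of SSA2, SSB2 and HSP82, which had no value, lay where between 1.0% and 4.5% of the nearest spots (up to 100 on each side) had one. The 5 members measured on array 4 lay where between 10% and 49.0% did, but SSA3 and SSA4, without a value, lay where 17.6% and 33.0% did. On array 5 the order was not the same, since SSA1 was measured where about 10% of nearby spots were and SSA3 was not where 20.4% were. The part of position in the gaps was not tested.

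Among the constitutive HSP70 genes, SSA1 lay at -0.45, 1.75, 1.93 and 1.30 on arrays 2, 3, 4 and 5. It was high on 3 of its 4 arrays, above 98.4% of genes on array 3 and above 85.4% on array 5, and below the median on array 2. On array 4, which had the widest spread of all arrays, the value of 1.93 exceeded 79.1% of genes. Its adjacent duplicate spots agreed closely, at 1.88 and 1.98 on array 4 and at 1.31 and 1.30 on array 5.

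SSA2, the second abundant cytosolic HSP70 gene, lay at 1.51, -1.65, 0.23 and 0.09 on arrays 1, 2, 3 and 5. It was among the lowest genes on array 2, where 1.12% of genes were lower, and high on array 1 as the mean of 2 spots. Those spots did not agree. On array 1 the lower-numbered spot lay at 3.61 and the other at -0.59, a gap of 4.20 log2 units, and on array 3 they lay at -0.76 and 1.22. On array 2 they were nearly equal, at -1.64 and -1.66. The mean of SSA2 on arrays 1 and 3 thus stands for neither of its spots.

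SSB2 had the highest value of any member, 3.97 on array 1, where it exceeded 98.1% of genes. Its other values were -1.06 on array 2, -0.78 on array 3 and 0.42 on array 5, so array 1 stood alone. The paired gene SSB1 lay at -0.90, 0.39 and -3.79 on arrays 2, 3 and 4. The low value on array 4 came from duplicate spots at -4.50 and -3.08, and 7.16% of genes on that array were lower.

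The stress-induced HSP70 gene SSA4 lay at 1.06, -1.26 and -3.51 on arrays 1, 2 and 3. Its value on array 3 was lower than that of nearly every gene, with 0.202% below it. SSA3 lay at -1.24 and -0.41 on arrays 2 and 3.

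The HSP90 gene HSP82 was below the array median on all 4 of its arrays, at -0.04, -0.41, -1.82 and -0.08 on arrays 1, 2, 3 and 5. The value on array 3 was far below the rest, with 2.99% of genes lower, and those on arrays 1 and 5 were close to 0. With the signs of arrays 3 and 4 turned, 1 of the 4 values lay above the median. The duplicate spots of HSP82 on array 5 lay at 0.32 and -0.48, on either side of 0. Against neighbouring spots HSP82 lay at -0.0, -0.11, -2.54 and -1.66 on arrays 1, 2, 3 and 5, so array 5 was then no longer close to 0. HSC82, the constitutive HSP90 gene, stayed near the median, at -0.18, -0.44 and 0.41 on arrays 1, 3 and 4. Its duplicate spots on array 4 lay at -0.58 and 1.40, on either side of 0.

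HSP104 was above the median on all 4 of its arrays, at 0.52, 0.58, 0.25 and 0.07 on arrays 1, 3, 4 and 5. Its standard deviation over these arrays was 0.24, and 0.47 with the signs of arrays 3 and 4 turned, when 2 of the 4 values lay above the median; that of HSC82 was 0.44 either way. Against neighbouring spots the value on array 4 changed sign, to -0.56, while those on arrays 1 and 3 were 0.87 and 0.97 and array 5 had too few measured neighbours. The duplicate spots of HSP104 on array 5 lay at 0.21 and -0.06, on either side of 0. HSP26 lay at -0.64, 3.07 and -0.52 on arrays 3, 4 and 5. The high value on array 4 was shared by its duplicate spots (3.19 and 2.95), which are adjacent, and exceeded 88.2% of genes there. Against neighbouring spots HSP26 lay at -0.41, 1.84 and -0.66 on arrays 3, 4 and 5.

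**Figure D2:**
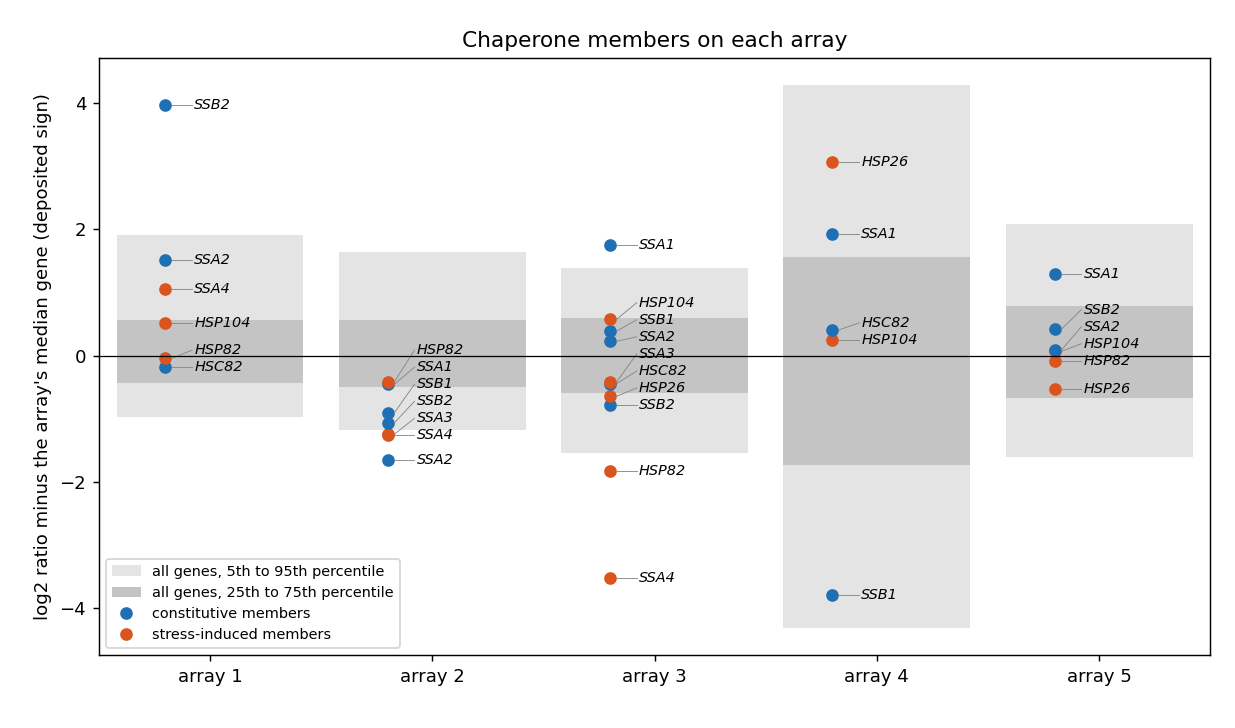
Log2 ratio of each measured member minus the median gene of its array (vertical axis, deposited sign) on arrays 1 to 5, with constitutive members in blue and stress-induced members in orange. Grey bands hold the central 50% and 90% of all genes; all 7 members measured on array 2 lie below 0, while on the other arrays members lie on both sides.

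Taken by array, the members shared a side on array 2 alone. There 7 of 7 lay below the median, between -1.65 and -0.41, with a median of -1.06; by construction 50.0% of all genes do. On array 1 the members had 4 of 6 above the median, on array 3 4 of 10, on array 4 4 of 5 and on array 5 4 of 6, with medians of 0.79, -0.43, 0.41 and 0.08. More than 1 log2 unit from the median, either way, were 3 of 6 members on array 1 (18.8% of all genes), 4 of 7 on array 2 (20.9%), 3 of 10 on array 3 (25.8%), 3 of 5 on array 4 (67.8%) and 1 of 6 on array 5 (36.2%). After subtraction of the median of the measured neighbours among the 10 spots on each side, the 5 members that kept a value on array 2 were all below 0 (median -0.63). On array 1, 2 of 6 members then lay above 0 and their median was -0.06. SSB2 on array 1 remained at 4.20 and SSA4 on array 3 at -3.58 after that step, whereas SSA4 on array 1 went from 1.06 to -0.50 and SSA2 on array 1 to -0.45, the latter from its higher-numbered spot alone.

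Gene pairs with closely related products were compared where both were measured. SSA1 lay above SSA2 on all 3 arrays that measured both, by 1.19, 1.52 and 1.22 log2 units on arrays 2, 3 and 5. With the lower-numbered or the higher-numbered SSA2 spot alone, the mean of this difference was 1.64 or 0.98 in place of 1.31. Array 3 has the orientation opposite to arrays 2 and 5, so if the deposited ratios have the same channel as numerator throughout, array 3 runs against the others. SSB1 lay above SSB2 by 0.16 on array 2 and by 1.17 on array 3. HSP82 and HSC82 differed by 0.14 on array 1 and by -1.38 on array 3. SSA3 and SSA4 differed by 0.01 on array 2 and by 3.10 on array 3. In 3 of these pairs, then, the genes lay within 0.2 log2 units of each other on array 1 or 2 and more than 1 unit apart on array 3.

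The agreement of repeated spots set the scale for these differences. On arrays 4 and 5, adjacent spots of a gene differed by a median of 0.45 and 0.28 log2 units, against 2.34 and 1.09 between any 2 spots with a gene. On arrays 1, 2 and 3, spots of a gene printed apart differed by a median of 0.86, 0.75 and 1.03, against 0.75, 0.79 and 0.91 between any 2 spots. Their values correlated at 0.0342 over 228 genes on array 1, 0.106 over 258 on array 2 and -0.0256 over 1022 on array 3, while on arrays 4 and 5 adjacent spots correlated at 0.803 (914 genes) and 0.862 (735 genes). These correlations are across genes of 1 array, which are not independent replicates, and adjacent spots also share their place on the slide. On arrays 1 to 3 the median gap of 2 spots annotated to 1 gene was above that of any 2 spots on arrays 1 and 3 and slightly below it on array 2, and the gap between the SSA2 spots on array 1 was larger than that of 95.6% of such genes. The spots of HSP104 differed by 0.10 on array 3, less than in most genes. Every value of a single-spot member on these 3 arrays carries the same uncertainty, and its cause was not tested. Whether each of these spots holds the gene that its annotation names was not tested either, so a value printed for a gene on arrays 1 to 3 rests on that annotation.

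**Figure D3:**
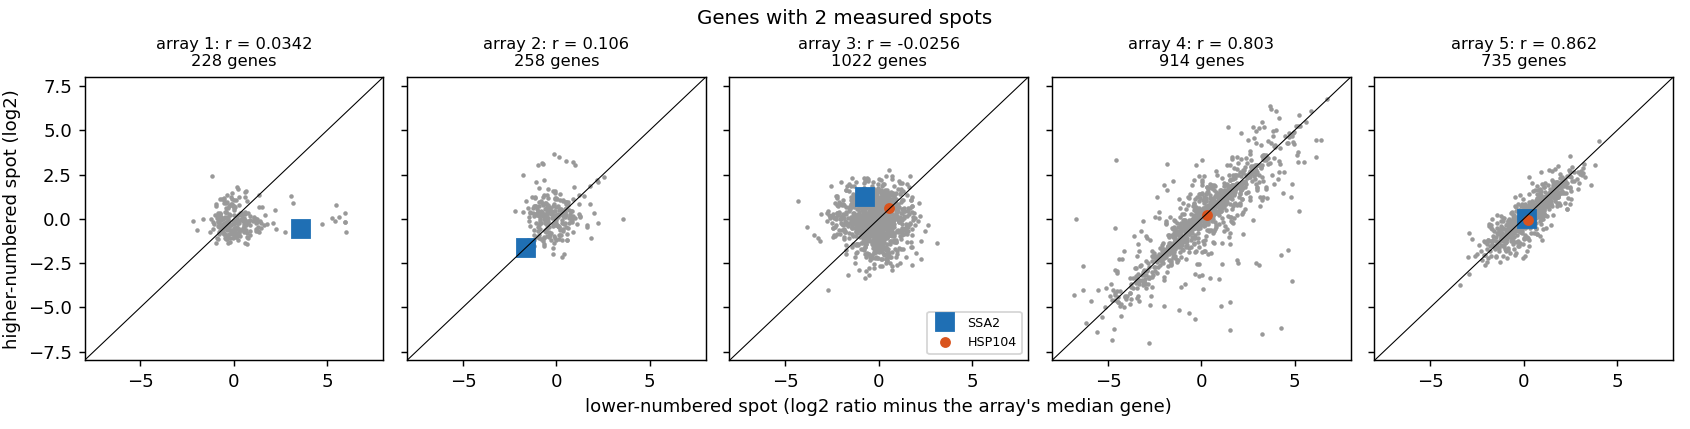
For each array, every gene with 2 measured spots is a grey point, with the lower-numbered spot on the horizontal and the higher-numbered spot on the vertical axis (log2 ratio minus the array's median gene); SSA2 is a blue square, HSP104 an orange circle and the line marks equal values. Spots of a gene follow the line on arrays 4 and 5 (r of 0.803 and 0.862) and do not on arrays 1 to 3 (0.0342, 0.106 and -0.0256).

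Constitutive and stress-induced members were set against each other as class medians on each array. The stress-induced median minus the constitutive median was -0.98, -0.26, -0.86, 1.25 and -0.50 on arrays 1 to 5. With these deposited signs it was negative on 4 of 5 arrays. Array 4, where only HSP104 and HSP26 stood for the stress-induced class, went the other way. With the signs of arrays 3 and 4 turned, array 3 was the exception, at 0.86, and array 4 was the lowest, at -1.25. The mean of the difference was -0.27 ± 0.90 (SD, n = 5) with deposited signs, and -0.43 ± 0.82 after the signs of arrays 3 and 4 were turned. Both means are smaller than the spread between arrays. Single arrays moved them: the first was -0.09 without array 1, -0.12 without array 3 and -0.65 without array 4, and the turned mean was -0.75 without array 3 and -0.22 without array 4. With the higher-numbered SSA2 spot alone they were 0.03 and -0.06, and with the lower-numbered one -0.56 and -0.98. After the same subtraction of neighbouring spots the turned mean was 1.32 ± 1.95 (SD, 4 arrays), so its sign depends on that step. The mean with deposited signs was -1.04 ± 2.16. Members without enough measured neighbours dropped out, and array 5 had no constitutive member left. On array 4 SSA1 alone, at 4.87, then stood for the constitutive class, against a stress-induced median of 0.64.

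Over the 5 arrays together, 5 members had the 4 values needed for a test, and none was called. In limma, with the orientation as an additive term, 0 of 725 genes (0.0%) had an adjusted p under 0.05 in either reading of the direction. At an unadjusted p under 0.05 there were 19 genes (2.62%) if the numerator is the same channel throughout, here called the channel reading, and 25 (3.45%) if the authors had already turned the signs, the deposited-sign reading. No member was among them. SSA1 came closest: it lay at 1.13 ± 0.54 (log2, SE; 95% interval -0.11 to 2.37) in the deposited-sign reading, with a limma adjusted p of 0.903 and a positive value on 3 of 4 arrays. In the channel reading it lay at -0.71 ± 0.54 (adjusted p = 0.905, limma).

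HSP82 lay at -1.0 ± 0.58 in the deposited-sign reading and at 0.82 ± 0.58 in the channel reading. Its size in both came mainly from array 3. HSP82, SSB2 and SSA2 had no value on array 4, so array 3 alone stood for its orientation in their fits. The spread of each of these genes was taken from arrays 1, 2 and 5, so their SE and intervals assume, and do not measure, the error of array 3. SSB2 lay at 0.17 ± 0.93 and 0.94 ± 0.93 (the latter 0.23 without array 1 and 1.49 without array 2), HSP104 at 0.36 ± 0.50 and -0.06 ± 0.50, and SSA2 at 0.10 ± 0.73 and -0.12 ± 0.73, in the same order of readings. The adjusted p of these members lay between 0.903 and 0.985 in limma. Intervals reached from -1.96 to 2.29 for SSB2 in the deposited-sign reading and from -0.79 to 1.5 for HSP104, so for these members a difference of 1 log2 unit could not be told from 0 with these arrays. Of the 5 members 4 were positive in the deposited-sign reading, where 54.1% of all genes were positive and 45.9% negative, and 2 in the channel reading, against 52.6% positive and 47.4% negative. Without array 3 the counts over all genes were 68 and 80 of 602 in the channel and deposited-sign readings, without array 4 they were 2 and 0 of 1811, and without array 2 they were 1 and 0 of 1098. These fits tested 2, 6 and 7 members without array 3, array 4 and array 2, and none was called. With 2 members tested, the lack of a call without array 3 says little about the members. Without array 3 or array 4, the other of them was the only array with zzYra1 in channel 1. Without array 3, the error was thus measured on arrays 1, 2 and 5 and assumed for array 4. On array 4, 67.8% of genes lay more than 1 log2 unit from the median, against 18.8%, 20.9% and 36.2% on arrays 1, 2 and 5. The part of this wider spread in the counts without array 3 was not tested.

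**Figure D4:**
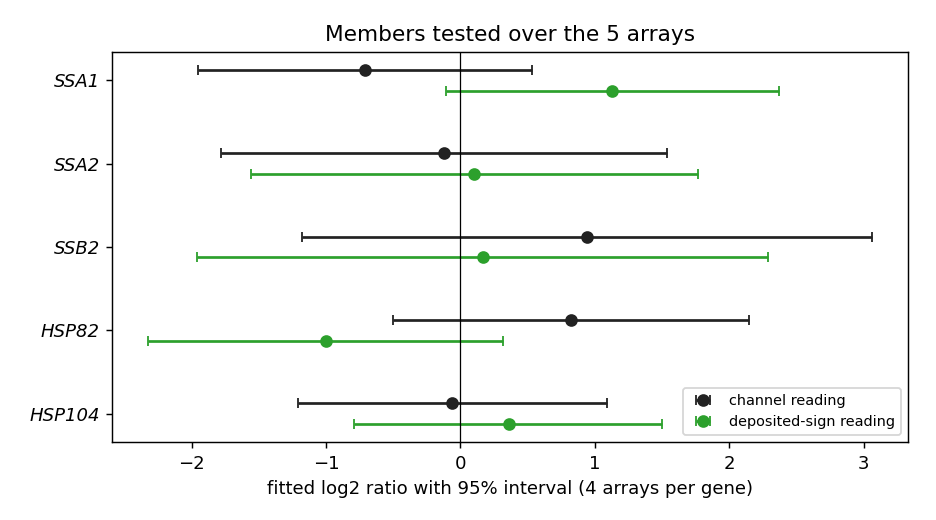
Fitted log2 ratio (horizontal axis) of the 5 members with values on 4 arrays, with 95% intervals as bars, under the channel reading (black) and the deposited-sign reading (green). Each of the 10 intervals includes 0; the one nearest to leaving it out is SSA1 in the deposited-sign reading, from -0.11 to 2.37.

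Within 1 orientation no reading of the direction is needed. With zzYra1 in channel 2 (arrays 1, 2 and 5), limma called 0 of 281 genes and gave 6 (2.14%) an unadjusted p under 0.05. SSB2 lay at 1.11 ± 1.00, HSP82 at -0.18 ± 0.35 and SSA2 at -0.02 ± 0.67 there, with limma adjusted p-values of 0.847 or more. These are 1 positive and 2 negative values, where 50.9% of all genes were positive and 49.1% negative. Over arrays 3 and 4, 0 of 1300 genes were called and 65 (5.0%) had an unadjusted p under 0.05. SSA1 lay at 1.84, SSB1 at -1.70, HSP26 at 1.22, HSP104 at 0.41 and HSC82 at -0.02, each with an SE of 1.36, and their lowest limma adjusted p was 0.969. These are 3 positive and 2 negative values, where 48.8% of all genes were positive and 51.2% negative. The SE of 1.36 was shared over genes, so it does not show how closely the values of 1 gene agreed. On arrays 3 and 4 HSP104 lay at 0.58 and 0.25 and SSB1 at 0.39 and -3.79.

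For each member with 4 values, the genes with the smallest root mean square difference over the same arrays were identified. For SSA1 these were HYP2, which codes for the translation factor eIF5A (0.29 log2 units), and YCL019W (0.48), among 330 genes with a median of 1.71. For SSA2 they were TDH1, a glyceraldehyde phosphate dehydrogenase gene (0.33), and GPH1, of glycogen phosphorylase (0.38), among 277 genes. SSB2 was nearest to RPL35B, of the large ribosomal subunit (0.78), and TMA23 (0.88), both with high values on array 1 (3.58 and 2.58). HSP82 was nearest to FRE1, a ferric reductase gene (0.25), and MEC3, of the DNA damage checkpoint (0.35), and HSP104 to SMI1 (0.26) and SIC1, the gene of a cyclin-dependent kinase inhibitor (0.37). Over all genes compared, the median difference was 1.36 for SSA2, 2.19 for SSB2, 1.22 for HSP82 and 1.25 for HSP104. The likeness rests on 4 arrays and carries no test.

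The wider chaperone network held 65 genes that assist or resemble the members, found in the annotation of the slides. They had a value in 43.1%, 60.0%, 93.8%, 26.2% and 15.4% of cases on arrays 1 to 5, near the shares of all genes. Their medians were -0.20, -0.07, -0.08, -0.19 and -0.14. In limma 9 of the 65 were tested and 0 were called in either reading, with 5 positive values in each and medians of 0.00 and 0.08 in the channel and deposited-sign readings, against 0.06 and 0.07 over all genes.

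The chaperonin subunit gene CCT5 had the smallest p of these 9 in both readings, at 1.47 ± 0.64 in the channel reading and 1.76 ± 0.64 in the deposited-sign reading (limma adjusted p of 0.905 and 0.903). Its values were 4.87, 0.46, 0.13 and 1.59 on arrays 1, 3, 4 and 5, so array 1 stood above the rest. Against neighbouring spots the value on array 1 was -0.52 and that on array 3 was 0.17, so the height of CCT5 on array 1 did not outlast that step. HLJ1, a J-protein gene of the endoplasmic reticulum membrane, lay at -1.14 and 0.08 in these readings, and the mitochondrial J-protein gene MDJ1 at -0.78 and -0.66. TAH1, of a co-chaperone complex of HSP90, lay at -0.21 and 0.67, with values of 0.58, 0.71, 1.04 and 0.34 on arrays 2 to 5 that were all above the median; against neighbouring spots they were 0.04, 0.87, -0.04 and 0.07. The prefoldin gene YKE2 lay at -0.29 and -0.21. Among small heat shock and other stress genes HSP150, a cell wall glycoprotein gene, had the smallest p in the channel reading and HSP31 in the other, with fitted log2 ratios of 0.18 ± 0.63 and 0.31 ± 0.55.

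No exchange factor, nascent chain complex or stress transcription factor gene had the 4 values needed. Of the exchange factors, FES1 lay at 0.66, -0.53 and -3.34 on arrays 1, 3 and 4 (0.01, -0.67 and -0.58 against neighbouring spots), and SSE1 at -1.04, 1.16 and -1.21. SSE1 and FES1 promote nucleotide release from cytosolic HSP70, and their values, like those of the HSP70 genes, took both signs. HSF1, the gene of the heat shock factor, lay at -0.21, 1.41 and -1.05 on arrays 1, 2 and 3.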

How the data were processed

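Each deposited table gave, for every spot, the log10 ratio of its channels; 1 table held arrays 1 to 3 and the other arrays 4 and 5. For the scanner, background correction, dyes, filters and build, nothing was stated by the authors in the sources used here. The log10 scale was settled from the deposited values: between 11.7% and 54.2% per array became ratios of whole numbers up to 3000, against at most 0.355% as log2 or natural log. Of 5583 and 5539 genes in the tables, 5578 and 5534 matched the R64 reference gene table by gene identifier. Values were multiplied by 3.32 to log2, averaged over spots and centred on the median gene, with no loess or quantile step, so a shift shared by most genes is removed. Genes on at least 4 arrays were fitted in limma 3.58.1 (R 4.3.3) with the orientation as a term and Benjamini-Hochberg adjusted over all genes (threshold 0.05). The channel reading is the orientation coefficient, the deposited-sign reading the intercept. The code was run on simulated data with a smaller spread than these arrays, equal on each, so that run does not show what the fit could find here. The members and lists were chosen with earlier results of these data known. The genes named were the members, the gene with the smallest p in each role group of the wider network and the 2 genes nearest to each member; SSE1, FES1 and HSF1 were named after their values were seen, and the look at spot positions was also added then. Without intensities the brightness of a spot over background cannot be given, and precision is limited by the number of arrays.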

Additional observations from a re-analysis of the deposited data

Results flagged for a closer look

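Of 14 sets of values examined, 1 held a value that stood apart, and chance alone gives about 1 in 20 such sets, or 0.7 here. With the signs of arrays 3 and 4 turned, HSP82 lay at 1.82 on array 3 and between -0.41 and -0.04 on the other 3 arrays. With deposited signs the same gap, to -1.82, did not pass the limit for 4 values.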

How the results depend on the processing

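None of the chaperone genes tested was called under any alternative, and 111 of 120 of their alternative estimates kept the sign of the reported value. Part of these estimates could not turn. The median of at most 2 spots equals their mean, and fitting genes on at least 3 arrays left the estimates as they were. So did leaving out an array on which the gene had no value. The count of kept signs therefore overstates how far the signs were tried. SSA1 ranged from 0.65 to 1.57 in the deposited-sign reading and from -1.15 to -0.27 in the channel reading, with a limma adjusted p of 0.263 or more, and HSP82 kept its signs too. The signs that turned belonged to estimates near 0: HSP104 in the channel reading (0.01 with arrays scaled to equal spread, 0.06 without array 5 and 0.02 without array 3), SSB2 in the deposited-sign reading (-0.18 after quantile normalization and -0.55 without array 1) and SSA2 (0.72 in the channel and -0.04 in the deposited-sign reading from its lower-numbered spot, 0.28 without array 2 and -0.28 without array 1). Array 3 could not be left out for SSA2, SSB2 and HSP82, which had no value on array 4 and so no other array with zzYra1 in channel 1. With each other array left out, SSA2 ranged from -0.50 to 0.28 in the channel and from -0.28 to 0.51 in the deposited-sign reading. SSB2 then ranged from 0.23 to 1.49 in the channel and from -0.55 to 0.71 in the deposited-sign reading. HSP104, for which array 3 could be left out too, ranged from -0.17 to 0.06 in the channel reading. The count of genes called ranged from 0 to 68 in the channel reading and from 0 to 80 in the other when an array was left out. The class difference moved to 1.32 ± 1.95 (SD, 4 arrays) when spots were set against their neighbours, in the channel reading. When an array was left out it ranged from -0.75 to -0.22 in that reading and from -0.65 to -0.09 in the other. The mean of SSA1 minus SSA2 stayed positive but moved to between 0.98 and 2.14 under 5 settings. The settings with a term for arrays 4 and 5 and with single SSA2 spots were chosen after seeing the data; a random block for these arrays could not be estimated from 1 block of 2. Each array held both immunoprecipitates, so every ratio was already a difference within an array, and the arrays were not paired further.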

Other observations

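The whole numbers behind the deposited ratios shared a divisor on each array, a pattern looked for after seeing the values. Where a ratio of whole numbers up to 3000 was recovered, its denominator was a multiple of 25 in 957 of 1373 cases on array 4 (69.7%), against between 2.03% and 4.13% on the other arrays. It was a multiple of 17 in 67.9% of cases on array 5 and of 11 in 65.9% on array 1 and 76.4% on array 2, and on array 3 the numerator was a multiple of 21 in 32.6%. A factor common to an array leaves centred values unchanged.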
